A study of Mus musculus with 6 samples.

Results

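The 10 genes below, which shape the mitochondrial network, were followed from F1 mouse embryonic stem cells (mESCs) to cardiac precursor cell cultures (CPCCs). They were taken by symbol from the gene count tables of both cell types: the mitofusins *Mfn1* and *Mfn2*, the inner membrane genes *Opa1*, *Oma1*, *Opa3* and *Dnajc19*, the fission genes *Dnm1l*, *Fis1* and *Mff*, and the coactivator gene *Ppargc1a*. All 10 were found among the 16279 genes listed in at least 1 table, and 9 of them are in both tables, while *Ppargc1a* is listed only for CPCCs. The bulk RNA-seq comprised 3 libraries of male mESCs and 3 of male CPCCs, all of the strain cross C57BL/6 x CAST/EiJ, with the mother from the first and the father from the second strain. The mESCs were single-cell clones of lines from separate blastocysts, kept without feeder cells in 2i medium with Lif. The CPCCs were grown from these clones through hanging drops and embryoid bodies in medium with serum and ascorbic acid, and then on gelatin with EGF and Fgf2 to the fourth passage. They are mixed cultures, and the labels name no genetic change in either group. The study asked which allele a gene is expressed from, but the counts used here are not divided by allele.

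Mitochondria fuse and divide continually. MFN1 and MFN2 are GTPases that tether and fuse outer membranes, and OPA1 is the GTPase that fuses inner membranes and holds cristae closed, in forms that the protease OMA1 cuts under stress. Division is carried out by the dynamin DRP1, the product of *Dnm1l*, which assembles on the outer membrane at receptors such as MFF and, with a less settled part, FIS1. DNAJC19 and OPA3 are inner membrane proteins whose loss causes forms of 3-methylglutaconic aciduria, with cardiomyopathy in the case of DNAJC19, and PGC-1alpha, the product of *Ppargc1a*, drives mitochondrial biogenesis in heart and muscle.

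The mESC libraries S01, S02 and S03 held from 6442639 to 6907330 counts, and those of CPCCs, S04 to S06, from 8468819 to 11436062, so that 3 counts in a library, used below as the floor, correspond to between 0.298 and 0.463 CPM. CPM here are counts scaled by the TMM-normalized library size. Libraries are named by their columns, which carry no replicate number. Of 10 markers listed for mESCs, all 10 were lower in CPCCs, with summed levels of 6515 to 6649 CPM in mESCs and 172 to 463 CPM in CPCCs. Of 12 cardiac markers, 6 are listed only for CPCCs and 1 only for mESCs. Of the 5 in both, 1 was higher in CPCCs and 4 did not pass the test given below. The 12 summed to 6.62 to 9.21 CPM in mESCs and to 138 to 454 CPM in CPCCs. Much of the CPCC sum came from *Actc1*, with 280.6, 85.4 and 85.6 CPM in S04, S05 and S06. The defining factor *Nkx2-5* had 16, 0 and 8 counts in the same libraries. The 10 mesenchymal and smooth muscle markers summed to between 11812 and 18073 CPM in CPCCs and to at most 18.6 CPM in mESCs. Endoderm markers summed to between 54.2 and 63.9 CPM in CPCCs, with *Afp*, *Ttr* and *Apoa1* in neither table. Such sums depend on how abundant the listed genes are and give no share of cells. The paper describes CPCCs as enriched mainly for cardiac stem and progenitor cells. The part of mesenchymal, smooth muscle or endoderm cells in the results below was not tested. In such bulk libraries, a change in which cells are present and a change of RNA per cell cannot be told apart.

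Of the 9 fitted genes, 6 changed between the cell types: *Mfn2*, *Fis1*, *Mff* and *Opa3* rose in CPCCs, *Mfn1* and *Dnajc19* fell, and *Opa1*, *Dnm1l* and *Oma1* did not pass the test. All calls are from edgeR's quasi-likelihood test over 12471 genes, with a threshold of 0.05 on the Benjamini-Hochberg adjusted p. The p-values measure the spread between these libraries, which could not be matched to single clones. Over all genes tested, 61.4% passed, 31.7% as higher and 29.7% as lower in CPCCs, so 6 of 9 (66.7%) is near the background, and what sets these genes apart from each other is the direction and size of each change. In 6 of the 9, the same 6 genes, the groups did not overlap, as in 69.7% of all genes tested. The median log2 fold change of the 9 (CPCC over mESC) was 0.25, and 0.031 over all genes tested.

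**Figure D1:**
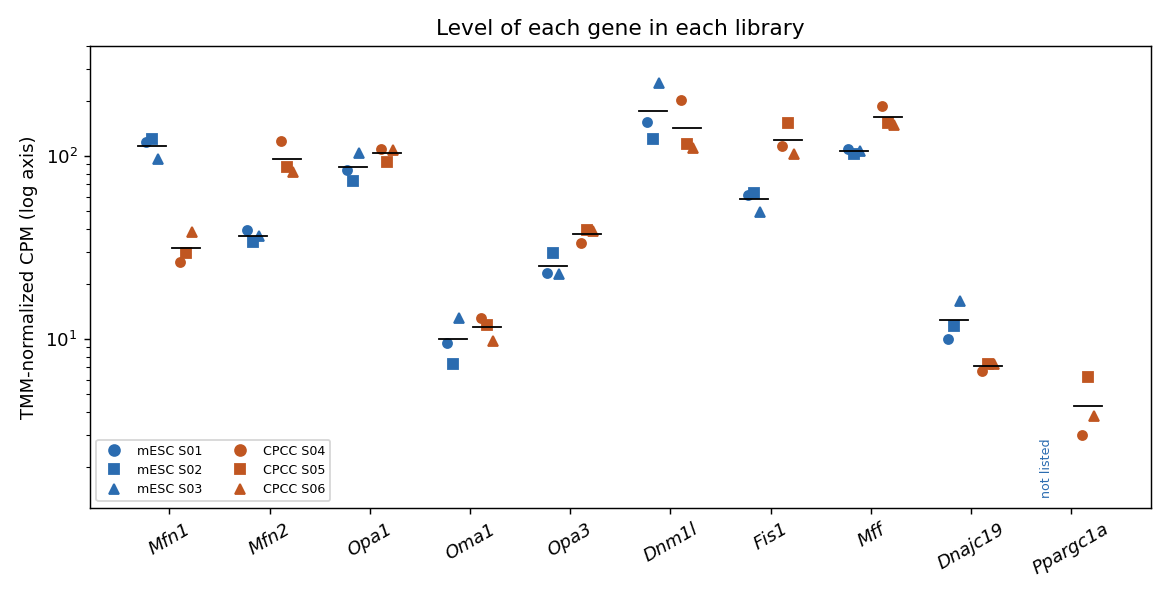
TMM-normalized CPM (log axis) of each gene in each of the 6 libraries, with mESC libraries in blue, CPCC libraries in orange, and black bars for group means. *Mfn1* (96.7 to 124 CPM in mESCs, 26.5 to 38.6 in CPCCs) and *Mfn2* (34.1 to 39.5 and 81.6 to 120.5) cross between the cell types, and *Ppargc1a* is not listed for mESCs.

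The mitofusins changed in opposite directions. *Mfn1* (GRCm38 chromosome 3, 32529482 to 32579226) stood at 119, 124 and 96.7 CPM in S01, S02 and S03 and at 26.5, 29.5 and 38.6 CPM in S04, S05 and S06. Each mESC library lay above each CPCC library, and the log2 fold change was -1.84 (standard error, SE, 0.21, adjusted p = 8.36e-05, edgeR), a level 3.59-fold lower in CPCCs. *Mfn2* (chromosome 4, 147873586 to 147904910) had 39.5, 34.1 and 36.4 CPM in the mESC libraries, compared with 120.5, 87.3 and 81.6 CPM in those of CPCCs. Its groups did not overlap either, and it rose 2.63-fold (log2 fold change 1.39, SE 0.20, adjusted p = 0.000356, edgeR). Within a library, *Mfn2* made up 24.9%, 21.6% and 27.4% of the summed counts of both genes in mESCs and 82.0%, 74.7% and 67.9% in CPCCs. Per kilobase of annotated exon, the same share came to 27.8 ± 3.13% in mESCs and 77.7 ± 6.47% in CPCCs (SD, n = 3 each, exact permutation, two-sided, p = 0.10, the lowest value 3 against 3 can give). The summed level of both genes overlapped between the groups, at 133 to 159 CPM in mESCs and 117 to 147 CPM in CPCCs. The counts of *Mfn1* were not whole in any of the 6 libraries (by over 0.05), whereas those of *Mfn2* were whole in all 6.

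The bases upstream of both mitofusin start sites are shown because these genes moved apart, with matches to the motifs searched in capitals. They are from RefSeq on GRCm38.p6, 250 bases before the start site, *Mfn1* on the plus strand at chr3:32529232-32529481 and *Mfn2* on the minus strand at chr4:147904910-147905159. This start site is that of the count tables for *Mfn1* and lies 1 base from it for *Mfn2*.
Mfn1: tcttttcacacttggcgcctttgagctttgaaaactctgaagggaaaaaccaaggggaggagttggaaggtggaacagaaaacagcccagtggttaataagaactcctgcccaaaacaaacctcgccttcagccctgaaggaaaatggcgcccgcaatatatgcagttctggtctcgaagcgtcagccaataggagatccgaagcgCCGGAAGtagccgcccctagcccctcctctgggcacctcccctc
Mfn2: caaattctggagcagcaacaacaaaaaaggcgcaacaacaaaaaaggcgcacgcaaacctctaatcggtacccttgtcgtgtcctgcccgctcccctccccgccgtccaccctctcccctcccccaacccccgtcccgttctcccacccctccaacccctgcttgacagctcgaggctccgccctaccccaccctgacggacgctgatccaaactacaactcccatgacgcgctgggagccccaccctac
The 4 motifs were searched on both strands of windows of 300 bases, 250 before and 50 after each start site. They were CCGGAAG, a core bound by ETS factors such as GABP, CGCATGCG, the centre of the NRF1 site, TGACGTCA, the cyclic AMP response element, and TNAAGGTCA, the site of oestrogen-related receptors. *Mfn1* holds 1 CCGGAAG that begins 44 bases before the start site, and the *Mfn2* window holds none of the 4 motifs. Of 32851 RefSeq promoter windows, CCGGAAG is found in 8.86%, CGCATGCG in 1.87%, TGACGTCA in 1.79% and TNAAGGTCA in 1.28%. Among the windows of the 10 genes, 1 for each gene, 2 hold CCGGAAG, 1 holds CGCATGCG and 0 hold the other two, and no matches overlap. Each window is the one nearest the start site in the count tables. *Mfn2* has 3 RefSeq windows in all, and *Dnm1l*, *Fis1* and *Mff* have 2 each, and the further ones are not counted among these 10.

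Of the inner membrane genes, *Opa1* and *Oma1* did not pass the test and *Opa3* rose. *Opa1* (chromosome 16, 29579334 to 29654603) stood at 83.6, 73.5 and 104 CPM in the mESC libraries and at 109.9, 93.1 and 108 CPM in CPCCs. The mESC library S03 lay above the CPCC library S05, and the log2 fold change of 0.25 (SE 0.18, adjusted p = 0.262, edgeR) did not pass. *Oma1* (chromosome 4, 103313846 to 103366429), whose product cuts OPA1, was a low gene with 62, 50 and 89 counts in mESCs and 132, 98 and 85 in CPCCs. Its levels of 9.58, 7.35 and 13.02 CPM in mESCs overlapped with 13.1, 11.9 and 9.74 CPM in CPCCs (log2 fold change 0.21, SE 0.32, adjusted p = 0.576, edgeR). *Opa3* (chromosome 7, 19228389 to 19246818) had 23.0, 29.7 and 22.7 CPM in the mESC libraries, compared with 33.6, 39.7 and 39.1 CPM in those of CPCCs, all CPCC libraries above all mESC libraries. Its rise of 1.49-fold passed narrowly (log2 fold change 0.57, SE 0.21, adjusted p = 0.0368, edgeR), and with S01, S03, S05 or S06 left out it did not, at 0.50 to 0.55 on the log2 scale and adjusted p from 0.0816 to 0.121.

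The *Opa1* promoter is shown as the only one of the 10 windows with the centre of the NRF1 site, in capitals 58 bases before the start, on the plus strand at chr16:29579084-29579333 (GRCm38.p6, RefSeq).
Opa1: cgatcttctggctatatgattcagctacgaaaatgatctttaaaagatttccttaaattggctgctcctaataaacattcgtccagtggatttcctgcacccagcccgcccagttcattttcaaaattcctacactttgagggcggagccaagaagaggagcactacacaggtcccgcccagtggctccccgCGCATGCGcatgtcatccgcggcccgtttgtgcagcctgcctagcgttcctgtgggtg

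Among the fission genes, *Fis1* and *Mff* rose while the gene for the dynamin itself did not pass. *Mief1* and *Mief2*, for other outer membrane adaptors of DRP1, did not pass either (log2 fold change -0.22 and -0.56, adjusted p = 0.258 and 0.0804, edgeR). *Fis1* (chromosome 5, 136953275 to 136966235) measured 61.0, 63.3 and 49.7 CPM across the mESC libraries and 114, 152 and 103 CPM in CPCCs. The groups were apart, and the rise was 2.12-fold (log2 fold change 1.08, SE 0.20, adjusted p = 0.0015, edgeR). *Mff* (chromosome 1, 82724890 to 82752390), the main receptor for DRP1, had closely spaced levels of 109.5, 103 and 106 CPM in the mESC libraries, compared with 189, 152 and 148 CPM in those of CPCCs. All CPCC libraries were higher, by 1.53-fold (log2 fold change 0.62, SE 0.16, adjusted p = 0.00943, edgeR).

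*Dnm1l* (chromosome 16, 16312228 to 16359032) did not pass, and its groups overlapped. It reached 153, 125 and 252 CPM in the mESC libraries, against 202, 117 and 111 CPM in CPCCs, so that S03 and S04 were the high libraries of their groups. The log2 fold change was -0.30 (SE 0.31, adjusted p = 0.422, edgeR). It depended on these libraries, being 0.045 without S03 (adjusted p = 0.909) and -0.62 without S04, where it passed the threshold (adjusted p = 0.0445). S03 and S04 were the highest libraries of their groups in 20.5% of all genes tested, and *Opa1*, *Dnm1l* and *Oma1* are the 3 such genes here. *Dnm1l* shares 243 exonic bases and *Mff* 195 with antisense genes that neither table lists.

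The *Fis1* promoter is shown because this gene had the largest rise after *Mfn2* among the 9 fitted genes and is, besides *Mfn1*, the other with CCGGAAG, in capitals 18 bases before the start, on the plus strand at chr5:136953025-136953274 (GRCm38.p6, RefSeq).
Fis1: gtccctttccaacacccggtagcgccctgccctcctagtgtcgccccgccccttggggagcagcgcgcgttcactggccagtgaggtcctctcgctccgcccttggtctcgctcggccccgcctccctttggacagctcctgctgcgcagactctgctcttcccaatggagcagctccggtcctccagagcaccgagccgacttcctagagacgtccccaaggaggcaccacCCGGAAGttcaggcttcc

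**Figure D2:**
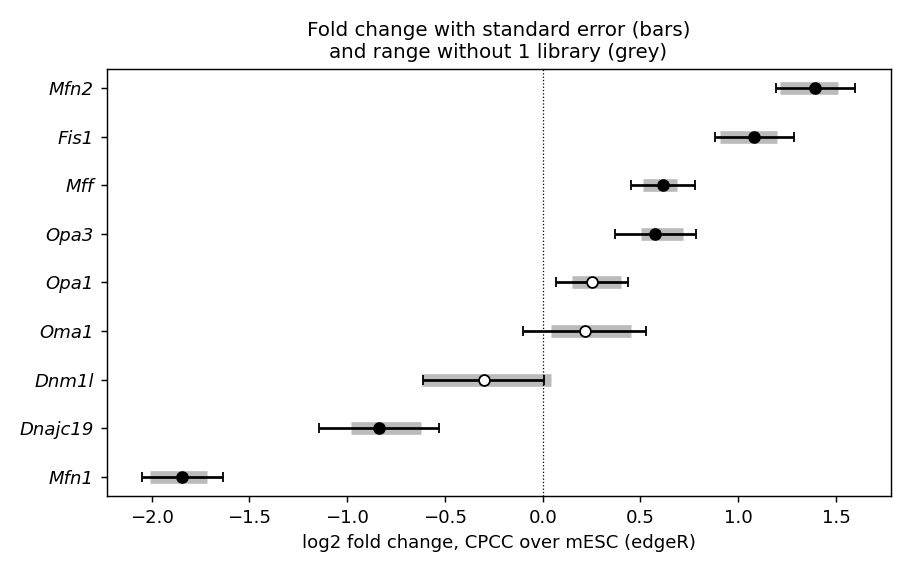
Log2 fold change of the 9 fitted genes (CPCC over mESC) with the standard error as black bars, filled points for an adjusted p under 0.05, and grey bars for the range over the 6 fits that leave out 1 library. *Mfn2* (1.39) and *Mfn1* (-1.84) lie at opposite ends, and the grey bar of *Dnm1l*, from -0.62 to 0.045, is the one that crosses 0.

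*Dnajc19* (chromosome 3, 34057280 to 34081355), whose product belongs to the import motor of the inner membrane and works with prohibitins in cardiolipin remodelling, was low in both cell types. Its counts were 65, 80.4 and 111 in mESCs and 67.4, 60 and 64 in CPCCs, which correspond to 10.04, 11.8 and 16.2 CPM and to 6.70, 7.28 and 7.33 CPM. The groups did not overlap and the gene fell 1.79-fold (log2 fold change -0.84, SE 0.31, adjusted p = 0.0393, edgeR). The call held only without S01 among the fits that left out 1 library, and the other 5 gave adjusted p from 0.0633 to 0.139, the largest without S03. *Dnajc19* shares 178 exonic bases with *Fxr1* on the opposite strand and has a processed pseudogene, *Dnajc19-ps*, and its counts were not whole in 2 libraries. Reads of both strands cannot be told apart in these counts, and strand use in counting is not given in the sources used here. Its paralog *Dnajc15* (chromosome 14, 77826217 to 77874918) fell as well, from 63.2, 62.7 and 59.8 CPM to 19.5, 31.6 and 34.8 CPM (log2 fold change -1.11, SE 0.24, adjusted p = 0.00305, edgeR).

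*Ppargc1a* (chromosome 5, 51454249 to 51567726) was detected at low counts in CPCCs, with 30, 51 and 33 counts or 2.98, 6.18 and 3.78 CPM in S04, S05 and S06. It is not listed for mESCs, where each gene in the table has at least 10 counts over the 3 libraries. Against 3 counts in each mESC library (0.448 CPM on average), its mean level in CPCCs was 9.64-fold higher. This ratio depends on the fill and is no strict minimum, and the edgeR fit with the same 3 counts gave a log2 fold change of 3.15. The other members of this coactivator family went the other way. *Ppargc1b*, for PGC-1beta, went from 28.7, 31.3 and 33.8 CPM in the mESC libraries to 3.88, 9.09 and 5.16 CPM in CPCCs, 5.19-fold lower (adjusted p = 0.0003, edgeR). *Pprc1* went from 86.8, 104 and 80.7 CPM to 29.1, 40.9 and 44.2 CPM (log2 fold change -1.25, SE 0.21, adjusted p = 0.000869, edgeR). In both genes the groups did not overlap.

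Levels of different genes were compared per kilobase of annotated exon (union over transcripts, GENCODE M21). On this scale mean levels in mESCs ran from 34.0 CPM per kilobase for *Dnm1l* and 33.8 for *Fis1* through *Mfn1* (18.5), *Opa1* (11.1), *Mff* (10.9), *Mfn2* (7.07), *Opa3* (4.95) and *Oma1* (4.66) to *Dnajc19* (3.15). The libraries of *Dnm1l* and *Fis1*, of *Opa1* and *Mff*, of *Opa3* and *Oma1* and of *Oma1* and *Dnajc19* overlapped in range. Such ranges ignore that both genes were measured in the same libraries, and the order within each library was not tested. In CPCCs *Fis1* led with 71.7 CPM per kilobase (60.2 to 88.4), before *Dnm1l* (27.5), *Mfn2* (18.6), *Mff* (16.7), *Opa1* (13.2), *Opa3* (7.37), *Oma1* (5.40), *Mfn1* (5.16), *Dnajc19* (1.76) and *Ppargc1a* (0.655). There *Mfn2* overlapped in range with *Dnm1l* and *Mff*, and *Oma1* with *Mfn1*. *Mfn1* went from the third place to the eighth and *Mfn2* from the sixth to the third. With the length of the longest coding transcript in place of the exon union, *Fis1* came first in both cell types and *Mff* second, *Mfn1* at the fourth and then the seventh place, and *Mfn2* at the sixth and then the fourth. The exons of *Mff* cover 9.76 kilobases in all and 2.09 in its longest coding transcript.

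Ratios of raw counts within a library do not depend on the normalization, and 5 pairs were compared. *Mfn2* to *Mfn1* was the only pair whose groups did not overlap, with 0.332, 0.275 and 0.377 in mESCs and 4.54, 2.96 and 2.11 in CPCCs. The ratio was 9.38-fold higher in CPCCs (two-sided exact permutation p = 0.10, adjusted over the 5 pairs 0.50), and S04 gave the highest value. *Opa1* to *Dnm1l*, inner membrane fusion against division, gave 0.545, 0.590 and 0.413 in the mESC libraries and 0.545, 0.796 and 0.974 in CPCCs (exact permutation p = 0.30, adjusted 0.50). *Fis1* to *Mff* gave 0.557, 0.613 and 0.468 in the mESC libraries and 0.603, 1.00 and 0.696 in CPCCs (exact permutation p = 0.20, adjusted 0.50). *Oma1* to *Opa1*, protease against substrate, lay between 0.10 and 0.125 in mESCs and between 0.0901 and 0.128 in CPCCs (exact permutation p = 1.0). *Dnajc15* to *Dnajc19* overlapped too, at 3.68 to 6.29 and 2.91 to 4.75 (exact permutation p = 0.40, adjusted 0.50). With 3 libraries in each group none of these tests can reach 0.05.

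**Figure D3:**
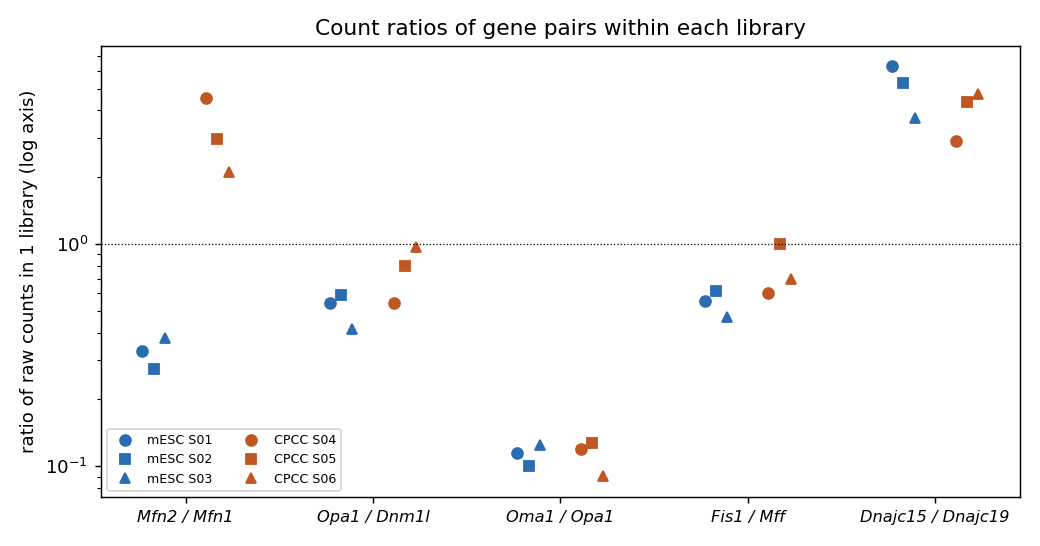
Ratio of raw counts of 5 gene pairs within each library (log axis), with mESC libraries in blue and CPCC libraries in orange. For *Mfn2* to *Mfn1* the groups lie on either side of 1, from 0.275 to 0.377 in mESCs and from 2.11 to 4.54 in CPCCs, and in the other pairs they overlap.

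The 7 lists of related mitochondrial genes were examined for comparison. Of their 103 fitted genes, 63 passed, 11 higher and 52 lower in CPCCs, against 4 higher and 2 lower among the 9 genes above. The share that passed is close to that over all genes, while the split by direction is not even.

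Other genes of fission, fusion and mitochondrial transport moved both ways, with 5 of 19 higher, 5 lower and a median log2 fold change of -0.15. *Inf2*, a formin that assembles actin where mitochondria divide, rose most, from 7.39 ± 2.47 to 122 ± 31.1 CPM (SD, n = 3 each; log2 fold change 4.05, adjusted p = 1.3e-05, edgeR). *March5*, an outer membrane ubiquitin ligase, rose from 88.6 ± 5.65 to 191 ± 42.0 CPM (SD, n = 3 each). *Mtfp1*, an inner membrane protein that promotes fission, fell from 23.1 ± 6.95 to 3.58 ± 2.29 CPM, and *Pld6*, an outer membrane phospholipase, from 6.34 ± 2.53 to 1.44 ± 0.909 CPM (SD, n = 3 each). *Gdap1*, a fission gene, is listed only for CPCCs, with 11, 27 and 43 counts. Without S03, the counts of this list were 6 higher and 3 lower.

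Genes that OPA1 and DNAJC19 work beside at the inner membrane are in the next lists. Of 14 genes for inner membrane and intermembrane space proteases, prohibitins and their partners, 11 were lower in CPCCs and 0 higher (median log2 fold change -1.01). *Chchd10* fell 14.6-fold, from 196 ± 18.8 to 13.4 ± 3.61 CPM, and *Chchd2*, for its paralog in the intermembrane space, from 1656 ± 101 to 557 ± 35.1 CPM (SD, n = 3 each; adjusted p = 4.05e-06 and 2.25e-05, edgeR). Of 11 genes for the MICOS complex and its bridge to the outer membrane, which hold cristae junctions, 5 were lower, 0 higher and 6 did not pass (median -0.68), a share of 45.5% against 61.4% over all genes. *Immt*, for the core subunit of MICOS, fell from 769 ± 41.5 to 316 ± 13.7 CPM and *Dnajc11* from 183 ± 15.5 to 90.7 ± 14.5 CPM (SD, n = 3 each).

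Of 13 genes for the TIM23 import channel and motor, 7 were lower and 2 higher (median -0.55), with 5 lower and 1 higher without S03. The motor chaperone gene *Hspa9* fell from 1618 ± 15.7 to 628 ± 33.0 CPM and *Timm44*, for its anchor, from 184 ± 19.5 to 76.2 ± 16.4 CPM (SD, n = 3 each). *Romo1*, for a small inner membrane protein of this complex, rose from 21.4 ± 4.89 to 54.9 ± 7.56 CPM, and *Dnlz*, for a protein that keeps HSPA9 soluble, from 24.6 ± 5.95 to 40.5 ± 7.19 CPM (SD, n = 3 each).

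Among 17 genes of cardiolipin metabolism and 3-methylglutaconic aciduria, the disorder group of *Opa3* and *Dnajc19*, 3 were higher and 5 lower (median -0.02). *Plscr3*, for a mitochondrial phospholipid scramblase, rose 7.12-fold, from 17.4 ± 0.777 to 124 ± 20.8 CPM, and *Lclat1*, for a cardiolipin acyltransferase, from 14.4 ± 1.78 to 53.1 ± 11.5 CPM (SD, n = 3 each). *Agk*, for a lipid kinase of the inner membrane, fell 5.12-fold, from 30.3 ± 8.27 to 5.90 ± 0.734 CPM, and *Tamm41*, for an early enzyme of cardiolipin synthesis, from 40.7 ± 3.09 to 18.03 ± 3.97 CPM (SD, n = 3 each).

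Of 17 fitted genes for PGC-1 partners and factors of mitochondrial transcription and replication, 9 were lower and 1 higher (median -0.91). *Ppard*, for a nuclear receptor of fatty acid use, was the higher one, with 13.1 ± 1.23 and 36.4 ± 7.80 CPM (SD, n = 3 each). *Esrrb*, which is among the mESC markers too, fell 41.2-fold, from 359 ± 10.3 to 8.76 ± 5.03 CPM (SD, n = 3 each), and *Ppargc1b*, given above, came next. Of the 20 genes of this list, 3 are, like *Ppargc1a*, listed only for CPCCs: *Esrrg*, *Ppara* and *Perm1*. Their counts were 17, 14 and 8, then 2, 7 and 6, and then 63, 17 and 40. Of the fitted genes, 7 did not pass, among them *Esrra*, *Nrf1* and *Gabpa*. These had log2 fold changes of 0.34, 0.17 and -0.91 (adjusted p = 0.504, 0.512 and 0.0571, edgeR). *Ppara*, at 0.578 CPM on average, lies near the floor.

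**Figure D4:**
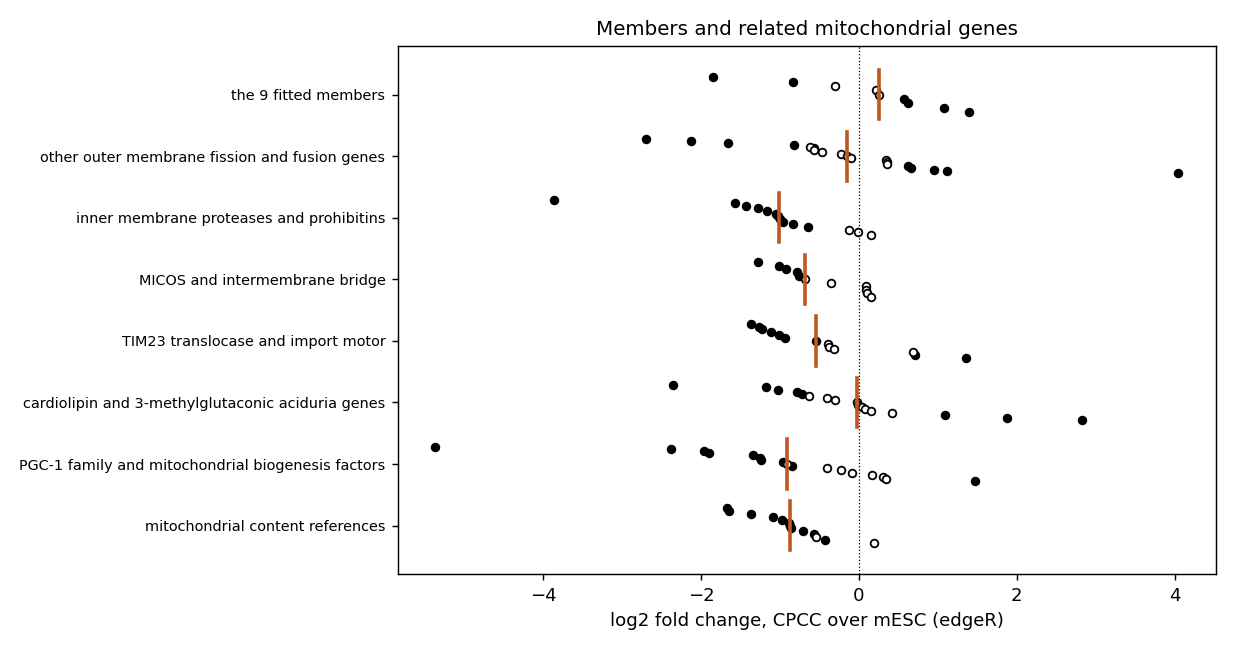
Log2 fold change (CPCC over mESC) of each fitted gene by list, with filled points for an adjusted p under 0.05 and orange lines for list medians. The medians of the lists for proteases and prohibitins (-1.01), biogenesis factors (-0.91) and content references (-0.87) lie left of 0, and that of the 9 genes followed here (0.25) lies to the right.

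The genes followed here were also set against abundant mitochondrial genes of the same library, a measure chosen after the data were seen. Of 13 such references for outer membrane channels, matrix enzymes, chaperonins and carriers, 11 were lower in CPCCs and 0 higher (median log2 fold change -0.87). The chaperonin genes *Hspd1* and *Hspe1* fell most, from 1249 ± 103 to 391 ± 26.0 CPM and from 320 ± 29.3 to 102 ± 12.1 CPM (SD, n = 3 each). Summed, the references took 6546 to 7179 CPM in mESCs and 3372 to 3890 CPM in CPCCs. Per 1000 reference counts, *Mff* had 16.0, 15.8 and 14.8 counts in mESCs and 48.5, 45.0 and 40.6 in CPCCs. *Opa1*, which did not pass in CPM, had 12.2, 11.2 and 14.5 in mESCs and 28.3, 27.6 and 29.6 in CPCCs, without overlap. *Oma1* likewise had 1.40, 1.12 and 1.81 against 3.37, 3.52 and 2.67. *Mfn1* was lower in CPCCs on this scale too, with 17.4, 18.9 and 13.5 against 6.82, 8.76 and 10.6. *Dnajc19*, which fell in CPM, overlapped, with 1.47, 1.81 and 2.26 against 1.72, 2.16 and 2.01, and so did *Dnm1l*, with 22.4, 19.1 and 35.1 against 51.9, 34.7 and 30.4. This scale raised every gene by 0.92 on the log2 scale, since the references fell. On it 6 of the 9 genes were higher without overlap, as were 59.5% of all genes tested, and 1 was lower, as were 12% of all genes, so that the higher values of *Opa1* and *Oma1* are those of the scale and are no result about these genes. Each of the 7 had a two-sided exact permutation p of 0.10, the smallest possible (0.129 adjusted over the 9).

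**Figure D5:**
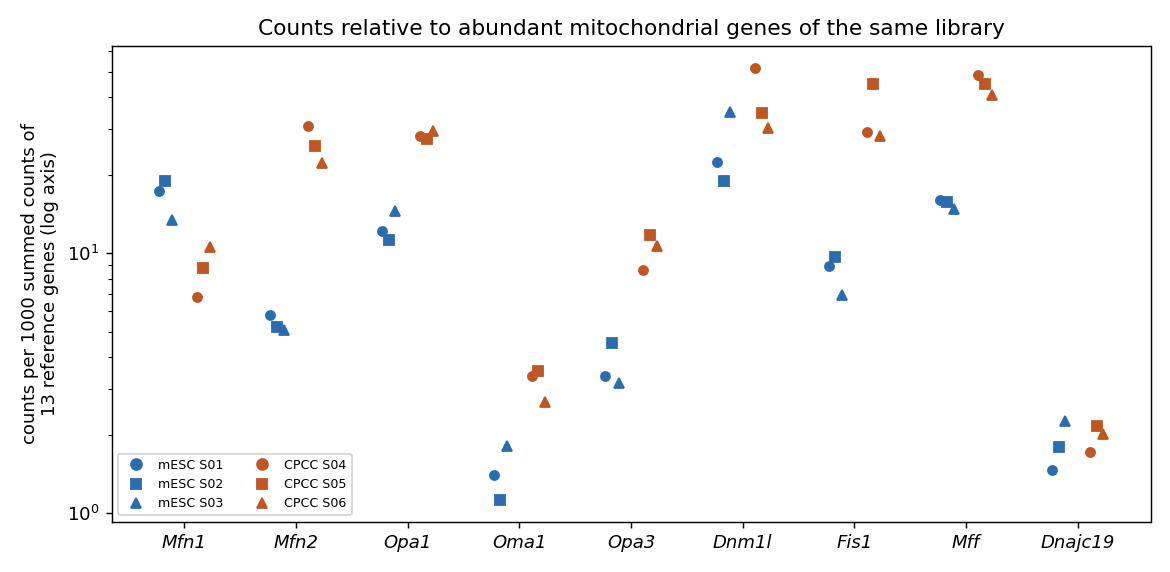
Counts of each gene per 1000 summed counts of 13 abundant mitochondrial genes in the same library (log axis), with mESC libraries in blue and CPCC libraries in orange. *Mfn2*, *Fis1*, *Mff*, *Opa3*, *Opa1* and *Oma1* are higher in all CPCC libraries, *Mfn1* is lower, and *Dnm1l* and *Dnajc19* overlap, on a scale that raised every gene by 0.92 (log2).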

How the data were processed

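Bulk RNA-seq was made from polyA-selected cDNA of 3 mESC and 3 CPCC samples. The authors deposited estimated counts per gene, not normalized, in 1 table per cell type, which leaves out genes under 10 counts over its 3 libraries. STAR 2.7 and mm10 are named in the submitters' processing notes, and the counter and its strand setting are not given in the sources used here. The table name and labels give each column's group. Since 17.9% to 21.5% of each library's values are fractional, counts were rounded. The 13001 genes in both tables were filtered with filterByExpr to 12471 and tested with edgeR 4.0.16 (quasi-likelihood, TMM, R 4.3.3), CPM having the same normalization. DESeq2 1.42.0, other normalizations and filters, filled missing genes and leaving out 1 library were alternatives. The procedure was also run on simulated data, in which far fewer genes changed than were called here, so that run does not test the share called. The labels name the samples replicates and the paper derives them from separate clones, and columns could not be matched to clones.

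The members and the lists were chosen with earlier results of these data known. Named are all 10 members, both genes of each ratio and, per related list, up to 2 rises and 2 falls, the largest that passed. *Pprc1*, *Mief1*, *Mief2*, *Gdap1*, *Esrrg*, *Ppara*, *Perm1*, *Esrra*, *Nrf1*, *Gabpa* and *Actc1* were named after their values were seen. Sequences are from RefSeq, 10 of 10 genes matched. Floors and bounds cover counting error only. Ratios were tested with scipy 1.17.1.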

Additional observations from a re-analysis of the deposited data

How the results depend on the processing

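Each of *Mfn1*, *Mfn2*, *Fis1* and *Mff* kept its direction and passed in all 13 alternative fits, with log2 fold changes from -2.01 to -1.72, 1.22 to 1.51, 0.91 to 1.2 and 0.51 to 0.69. *Opa1* and *Oma1* passed in none (smallest adjusted p 0.10 and 0.277). *Opa3* and *Dnajc19* each lost the call in 5 of the 13, *Opa3* also with missing genes set to 3 counts (adjusted p = 0.0526) and the others with fewer samples. *Dnm1l* changed sign without S03 (0.045) and passed without S04 (-0.62). Set against the 13 reference genes, which raised every gene by 0.92, *Dnm1l* (0.62) and *Dnajc19* (0.11) changed sign by that shift. With genes missing from a table at 0 counts *Ppargc1a* had a log2 fold change of 8.09, which depends on the fill, and at 3 counts 3.15 (adjusted p = 0.000611, edgeR). The count of genes called ran from 6560 of 10573 tested (at least 10 counts in every library) to 9011 of 13630 (missing genes at 3 counts) in fits of all 6 libraries. In the main fit it was 7656 of 12471. Without 1 library the count ran from 6536 of 12704 to 7895 of 12598. For the 9 genes it was 6, or 5 with missing genes at 3 counts, and, without 1 library, 4 to 6, the lowest without S03, S05 or S06. For related genes it was 60 to 66 and 54 to 67. The log2 ratio of *Oma1* to *Opa1* was -0.020 and ranged from -0.12 to 0.13 without 1 library, changing sign without S03 (0.054) and without S06 (0.13). The cause was not tested. No paired analysis was possible because the columns carry no replicate numbers. Genes with few counts, such as *Ppargc1a*, *Dnajc19* and *Oma1*, are limited by depth.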
